A study of Mus musculus with 8 samples.

Results

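The comparison described here sets liver of female mice aged 456 days against liver of female mice aged 90 days within the F3 generation. It rests on 4 of the 8 Illumina bead arrays of the study, chosen by their titles: 2 arrays of day 456 and 2 of day 90, matched by diet, so that 1 pair of arrays came from mice fed 5% corn oil (w/w) and 1 pair from mice fed 21%. The other 4 arrays held the same ages and diets in the F1 generation and share no array with the F3 pairs. All mice were of strain C57/BL6, with no genetic change or drug in the labels, and every liver was taken after a 6 h fast, which the groups at both ages therefore share. Not stated in the labels are whether RNA was pooled over animals, which diet earlier generations ate, or how the F3 animals descend from the F1 animals. Each combination of generation, diet and age was measured on 1 array, without a replicate. Spread and p-values therefore rest on how unlike the differences by age and generation were in the 2 diets, not on replicate arrays or animals.

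Most of the messenger RNA of liver comes from hepatocytes, which make plasma proteins such as clotting factors, complement and protease inhibitors, and which clear drugs and toxins through cytochrome P450 enzymes and conjugating enzymes. In the mouse a set of hepatocyte genes is expressed at different levels in males and females under control of the pattern of growth hormone release. Acute phase genes are raised in hepatocytes by inflammatory cytokines, neutrophils and macrophages carry their own transcripts for antimicrobial proteins, and genes of mitosis are read mostly while cells divide, which hepatocytes do far more in the growing liver than in the adult.

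A gene was taken to move with age in F3 when its log2 intensity at day 456 differed from that at day 90 by at least 0.5 in the same direction in both diet pairs. Of 8945 genes tested, 22 were higher at day 456 by this rule (0.246%) and 42 were lower (0.47%). The minimum was reached upward by 159 genes in the 5% pair and by 83 in the 21% pair, and downward by 147 and 103 genes. It was reached in opposite directions in the 2 diets by 7 genes. Across the 8945 genes the differences of the 2 F3 pairs had a Pearson correlation of 0.44, a description across genes, which are not independent of one another. Because the F3 values chose these 64 genes, their F3 differences are given as a description without a test, and the F1 arrays are the values not used to choose them. In the text, intensities are the deposited linear values, with the 5% array first and the 21% array second, and differences are log2 differences of day 456 minus day 90 in the same order. The deposited values have a floor (lowest value 101.4), so differences of dim genes are understated.

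**Figure D1:**
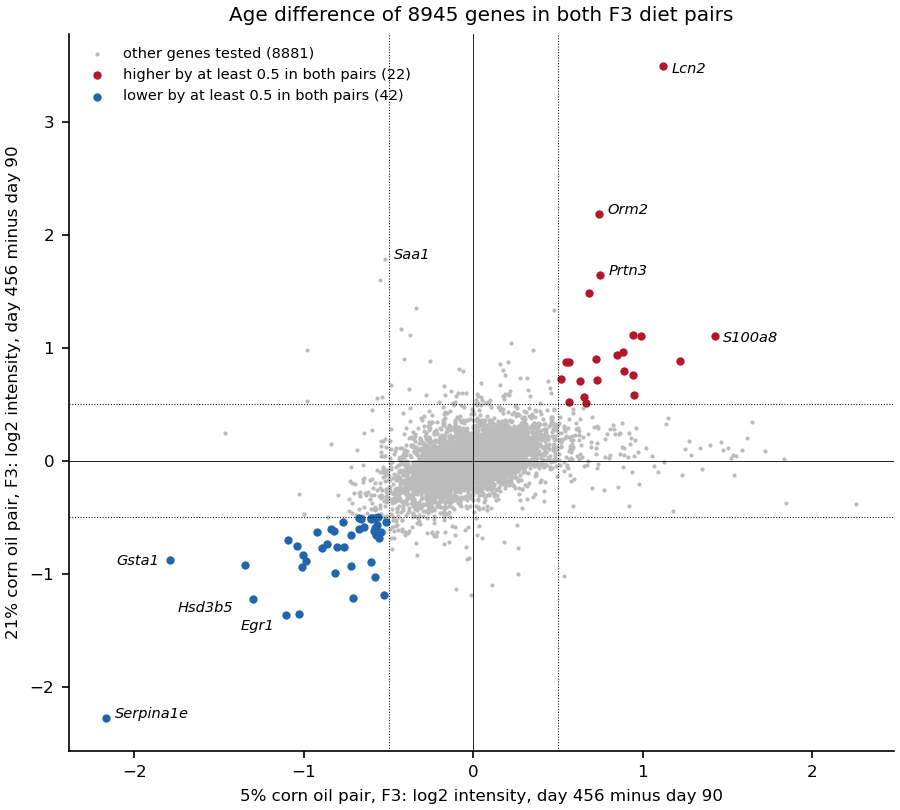
Each point is 1 gene, with its log2 intensity difference between day 456 and day 90 in the F3 5% corn oil pair on the horizontal axis and in the F3 21% pair on the vertical axis. Dotted lines mark 0.5 in either direction. The 22 red genes lie beyond it upward in both pairs and the 42 blue genes downward, and Saa1 stands among the genes that moved apart, with -0.52 and +1.78.

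The tissue label held on all 8 arrays, with the 6 hepatocyte markers Alb, Ttr, Apoa1, Serpina1a, Cps1 and Cyp2e1 at log2 intensities of 8.09 to 14.76. Transcripts of pancreas were present in both F3 arrays of the 5% diet: the summed intensity of 28 acinar markers was 12439 at day 90 and 31491 at day 456, against 4761 and 5134 in the 21% pair. In F1 the same sum was 22313 in the 5% array of day 456 and 3815 to 5021 in the other 3. The summed intensity of 14 skeletal muscle markers was 3872 in the F3 5% array of day 456 and 5171 in the F1 5% array of day 90, and 1870.0 to 2137 elsewhere. The Y-linked gene Eif2s3y read 165.7 on the F1 21% array of day 90 and 109.2 to 113.1 on the other 7. Both probes of Xist, the transcript of the inactive X chromosome, read within the range of the other arrays there, 273 where the others had 253 to 397, and 214 where they had 198 to 262. The F1 5% array of day 90 had the lowest mean correlation with the other arrays, 0.9766 against 0.9856 to 0.9905. Results that these arrays touch are given below with each pair's value.

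Transcripts of neutrophils, macrophages and the acute phase response were among the 22 genes that were higher at day 456. S100a8 and S100a9 encode the 2 chains of calprotectin, an antimicrobial protein of neutrophils. S100a8 had intensities of 436 and 470.0 at day 90 and 1171 and 1010.5 at day 456, so both old arrays stood above both young ones, and the differences were +1.43 and +1.10. S100a9 had 281 and 270.1 at day 90 and 520.0 and 468 at day 456, with differences of +0.89 and +0.79. In F1, which played no part in the choice, S100a8 differed by +2.01 and +0.66 and S100a9 by +1.15 and +0.43, so all 4 arrays of day 456 were above all 4 of day 90 for both genes. Il1b, the cytokine interleukin 1 beta, was dim but showed the same order, with 159 and 174 at day 90 and 252 and 249 at day 456.

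The lysozyme genes Lyz2 and Lyz1 followed. Lyz2 had 1456 and 1678 at day 90 and 3385 and 3099.9 at day 456, differences of +1.22 and +0.89, and F1 differences of +2.89 and +0.63, the larger of which rests on the F1 5% array of day 90 that stands apart from the rest. Lyz1 had 5717 and 6494 at day 90 and 8468 and 9281 at day 456. Lyz1 and Lyz2 are close copies of one gene, and probes may read both. The second kept probe of Lyz2 differed by +0.32 and +0.13, in the same direction but under the minimum, and 2 dim probes of Lyz1 differed by less than 0.1 in either diet. Cd207 (langerin, a lectin of dendritic cells) had 225 and 209 at day 90 and 360.5 and 583 at day 456, and its second probe was past the minimum as well. Zap70, a kinase of T cell receptor signalling, had 691 and 735 at day 90 and 1140.0 and 1374 at day 456, although other T and NK cell markers differed little, with a median of +0.06.

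The marker lists of these cells moved in the same direction as their leading genes. Of the neutrophil markers, 11 of 12 were higher in both F3 pairs and 0 were lower in both, with a median difference of +0.35 (+0.27 in the 5% pair and +0.33 in the 21% pair). Over all 8945 genes, 28.0% were higher in both pairs, 35.6% were lower in both, and the median was -0.01. Hp and Lrg1 on this list are also made by hepatocytes, and Lrg1 was one of the larger movers in the 21% pair, with +0.22 and +1.04. Mmp9 (+0.02 and +0.06) and Csf3r (+0.09 and +0.02), both dim, differed little. Ltf (+0.29 and -0.03) and Fpr2 (+0.77 and +0.03) moved mainly in the 5% pair. Of the Kupffer cell and macrophage markers 18 of 26 were higher in both pairs, with a median of +0.22, led after Lyz2 by the complement C1q chain genes C1qc (+1.14 and +0.32) and C1qb (+0.95 and +0.18) and by Vsig4 (+0.83 and +0.28), a complement receptor of Kupffer cells. Of the genes of MHC class II antigen presentation 11 of 14 were higher in both, with a median of +0.20, but the 5% pair carried most of it (+0.42 against +0.05), as H2-Eb1 shows with +0.92 and +0.25. The B cell and plasma cell markers had a median of +0.10, with 7 of 11 higher in both pairs, led by Mzb1 (+0.65 and +0.47), a protein of antibody-secreting cells. In whole liver, more cells of a type and more RNA per cell cannot be told apart.

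Red cell transcripts were also higher. Slc4a1, the anion exchanger of the red cell membrane, had 155 and 157 at day 90 and 285 and 307 at day 456, and no young array of either generation reached an old one. Alas2, the first enzyme of haem synthesis in red cell precursors, differed by +0.46 and +0.60, and the globin gene Hba-a1 by +0.48 and +0.19. The list held 5 measured genes, 4 of them higher in both F3 pairs, with a summed intensity of 18541 and 20554 at day 90 and of 25818 and 23739 at day 456. Whether blood left in the tissue had a part in the immune and red cell differences was not tested.

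**Figure D2:**
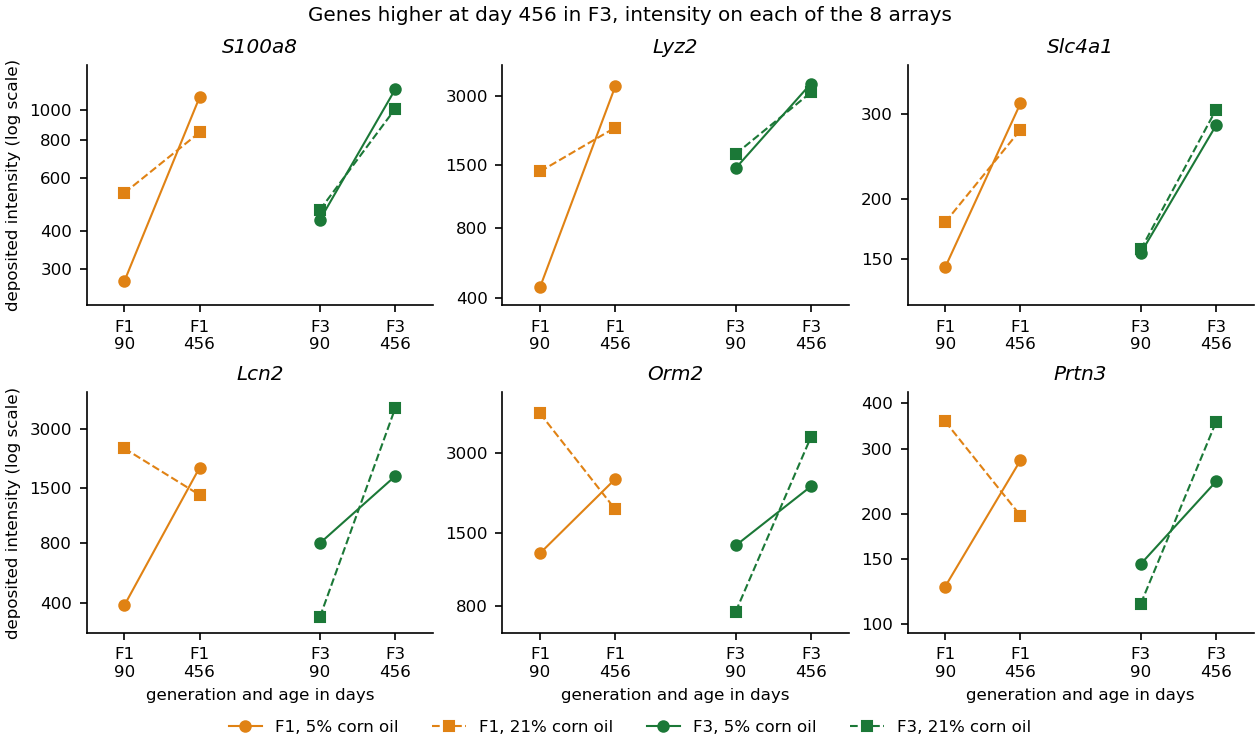
Deposited intensity on a log scale for 6 genes that were higher at day 456 in both F3 pairs, 1 point for each of the 8 arrays, with a line joining day 90 to day 456 within a generation and diet (circles and solid lines 5% corn oil, squares and dashed lines 21%). S100a8, Lyz2 and Slc4a1 are higher at day 456 in all 4 pairs, while Lcn2, Orm2 and Prtn3 are higher in both F3 pairs and in the F1 5% pair and lower in the F1 21% pair.

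Acute phase genes were higher at day 456 mainly in the 21% pair. Lcn2, which encodes lipocalin 2, a carrier that withholds iron from bacteria, had 796 and 339 at day 90 and 1731 and 3804 at day 456, and its differences of +1.12 and +3.49 gave it the largest mean difference of all genes tested in F3. Orm2, which encodes the plasma protein orosomucoid 2, had 1349 and 760.4 at day 90 and 2254 and 3458 at day 456, with differences of +0.74 and +2.19. Prtn3, proteinase 3 of neutrophil granules, had 146 and 114 at day 90 and 245 and 356 at day 456, with +0.75 and +1.64. In all 3 genes the old arrays lay above the young ones in F3 whatever the diet, but in F1 day 456 was higher in the 5% pair and lower in the 21% pair, with -0.78 for Lcn2, -1.20 for Orm2 and -0.85 for Prtn3. The F1 21% array of day 90 that carried the Y-linked signal was the highest or second highest of all 8 for each of them, with 2386 for Lcn2, 4242 for Orm2 and 356 for Prtn3. Serum amyloid genes parted by diet in F3, with -0.52 and +1.78 for Saa1 and -0.55 and +1.59 for Saa2, which are near-identical copies whose probes may not tell them apart. Over the 26 acute phase genes measured, 11 were higher and 3 lower in both F3 pairs, and the median was -0.04 in the 5% pair and +0.27 in the 21% pair.

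The remaining higher genes had varied roles. Csprs had 181 and 193 at day 90 and 359 and 412 at day 456, with differences of +0.99 and +1.10, and in F1 +0.76 and +1.06, so that its age difference was of like size in all 4 pairs. St3gal6, a sialyltransferase, differed by +0.85 and +0.93, Wfdc2, which encodes a secreted protein of the whey acidic protein family, by +0.94 and +0.76, and Serpina12, which encodes the secreted serpin vaspin, by +0.73 and +0.71. Ntrk2, the receptor of brain-derived neurotrophic factor, differed by +0.56 and +0.88, and Pex11a, a protein of peroxisome division and a PPAR-alpha target, by +0.51 and +0.72. Tmem45b (+0.63 and +0.70), Plekhb1 (+0.94 and +0.58), the splicing factor Srsf5 (+0.66 and +0.57) and Mustn1 (+0.55 and +0.87) completed the set. In F1 Srsf5 differed by +1.27 and -0.10 and Mustn1 by +0.17 and +0.47. The part of the muscle transcripts on the F3 5% array of day 456 and the F1 5% array of day 90 in these values was not tested. Second probes were smaller for Srsf5 (+0.18 and +0.21), Wfdc2 (+0.38 and +0.13) and Serpina12 (+0.01 and +0.11, dim). Over the 64 genes, 18 had 25 other kept probes, of which 22 differed in the same direction in both F3 pairs and 7 passed the minimum. Reg1 differs from these, since it is a secreted protein of pancreatic acinar cells: it had 856 and 149 at day 90 and 1642 and 322 at day 456, and in the 5% pair it moved with the pancreas markers given above. In the 21% pair Reg1 differed by +1.11, where the summed pancreas markers were 4761 and 5134 and their median difference was +0.06. Of the 28 pancreas markers measured, 22 were higher in both F3 pairs. The part of pancreas transcripts in the Reg1 values was not tested.

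The 42 genes that were lower at day 456 included genes of the male pattern of liver expression. Serpina1e, a copy of the alpha-1 antitrypsin gene, had 3128 and 2908 at day 90 and 697 and 599 at day 456, the largest difference downward of all genes tested in F3 (-2.17 and -2.28). Hsd3b5, a steroid-metabolizing enzyme of male mouse liver, had 294 and 268 at day 90 and 119 and 115 at day 456, close to the background of the array. Cyp2d9, a male-biased steroid hydroxylase, had 863 and 775 at day 90 and 423 and 303 at day 456. C8a and C8b, which encode chains of the terminal complement component C8, differed by -0.80 and -0.77 and by -0.81 and -0.99, and Egfr, the receptor of epidermal growth factor, by -1.09 and -0.70 with 2 other probes past the minimum too and a dim one at -0.27 and -0.00223. The major urinary protein genes Mup5 (-0.71 and -1.21) and Mup21 (-0.56 and -0.68) belong to a family of near-identical copies, as do the Serpina1 and Cyp2d genes, so the copy read by a probe is uncertain; the second kept probe of Mup5 was dim and differed by less than 0.1 in either diet.

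Of 23 male-biased genes measured, 19 were lower and 2 higher in both F3 pairs, and the median was -0.36. Cyp4a12a (-0.01 and -0.03) and Elovl3 (-0.03 and +0.02) could not show a fall in F3. On all F3 arrays they lay below the filter bound of 6.947, at log2 6.90 to 6.92 and 6.78 to 6.86. On the F1 21% array of day 90 they read 9.11 and 8.13. Cyp7b1 (+0.34 and +0.40) and Serpina12 (+0.73 and +0.71), the latter 1 of the 22 higher genes, were higher. In F1 the median of the male-biased list was -0.53 in the 5% pair and -1.07 in the 21% pair. The 24 female-biased genes measured had a median of -0.03 in F3, with 5 higher and 10 lower in both pairs, and +0.14 in F1. Serpina1e stood at 8341, Hsd3b5 at 1342 and Cyp2d9 at 2576 on the F1 21% array of day 90, the array with the Y-linked signal, each the highest of the 8. On the F3 arrays of day 90 Eif2s3y read 111.7 and 111.1, close to the background of the array. The bearing of this signal on the male-biased genes was not tested in either generation. Genes of growth hormone and insulin signalling moved in the same direction with smaller size: 11 of 18 were lower in both F3 pairs, with a median of -0.12, among them Socs2 (-0.39 and -0.64), a feedback inhibitor of the growth hormone receptor, Ghr, the receptor itself (-0.42 and -0.60), and Igfbp2 (-0.51 and -0.49), a carrier of insulin-like growth factors.

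The lower genes also included some for plasma proteins and for drug-metabolizing enzymes. Serpinc1, which encodes antithrombin, had 855 and 627 at day 90 and 541 and 438 at day 456. Cfb, complement factor B, had 2464 and 2076 at day 90 and 1619 and 1461 at day 456. Of 35 complement and coagulation genes, 26 were lower and 3 higher in both F3 pairs, with a median of -0.15 in F3 and -0.18 in F1. Afm, the vitamin E carrier afamin, differed by -0.58 and -0.66. Of the drug-metabolizing enzymes, Cyp1a2 had 2941 and 3118 at day 90 and 1641 and 2048 at day 456 and Cyp2b10, a target of the receptor CAR, had 268 and 280.1 at day 90 and 144 and 164 at day 456. The esterase gene Ces3b differed by -0.72 and -0.93, the sulfotransferase gene Sult2a8 by -0.72 and -0.66, and Dpyd, which breaks down pyrimidines, by -0.65 and -0.59. Over 59 xenobiotic genes, 39 were lower and 6 higher in both pairs, and the F3 median was -0.16 against +0.01 in F1.

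Cdh1, Etnppl and Aldh1b1 were lower at day 456 on all arrays of both generations. Cdh1 (E-cadherin, the adhesion protein of epithelial cells, which periportal hepatocytes express) had 461 and 392 at day 90 and 181 and 207 at day 456, with differences of -1.35 and -0.92. Etnppl, which breaks down phosphoethanolamine, had 649 and 548 at day 90 and 322 and 287 at day 456, and its second probe was past the minimum as well. Aldh1b1, a mitochondrial aldehyde dehydrogenase, had 679 and 456 at day 90 and 339 and 256 at day 456. The 4 old arrays lay below the 4 young ones for each of the 3 genes. The 16 periportal genes measured had a median of -0.35, with 9 lower and 3 higher in both F3 pairs, while the 20 pericentral genes had -0.16, with 12 lower and 3 higher, and the 27 hepatocyte identity genes -0.09. Cxadr, a tight junction protein, differed by -0.99 and -0.89, with 1 other probe past the minimum and a dim one at +0.01 and -0.08. The keratin gene Krt23 differed by -0.77 and -0.76, and Eppk1 (epiplakin, which binds keratin filaments) by -0.68 and -0.61. Egr1, a transcription factor of the immediate early response, had 1328 and 2821 at day 90 and 618 and 1095 at day 456, while the 16 immediate early genes measured had a median of -0.02.

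**Figure D3:**
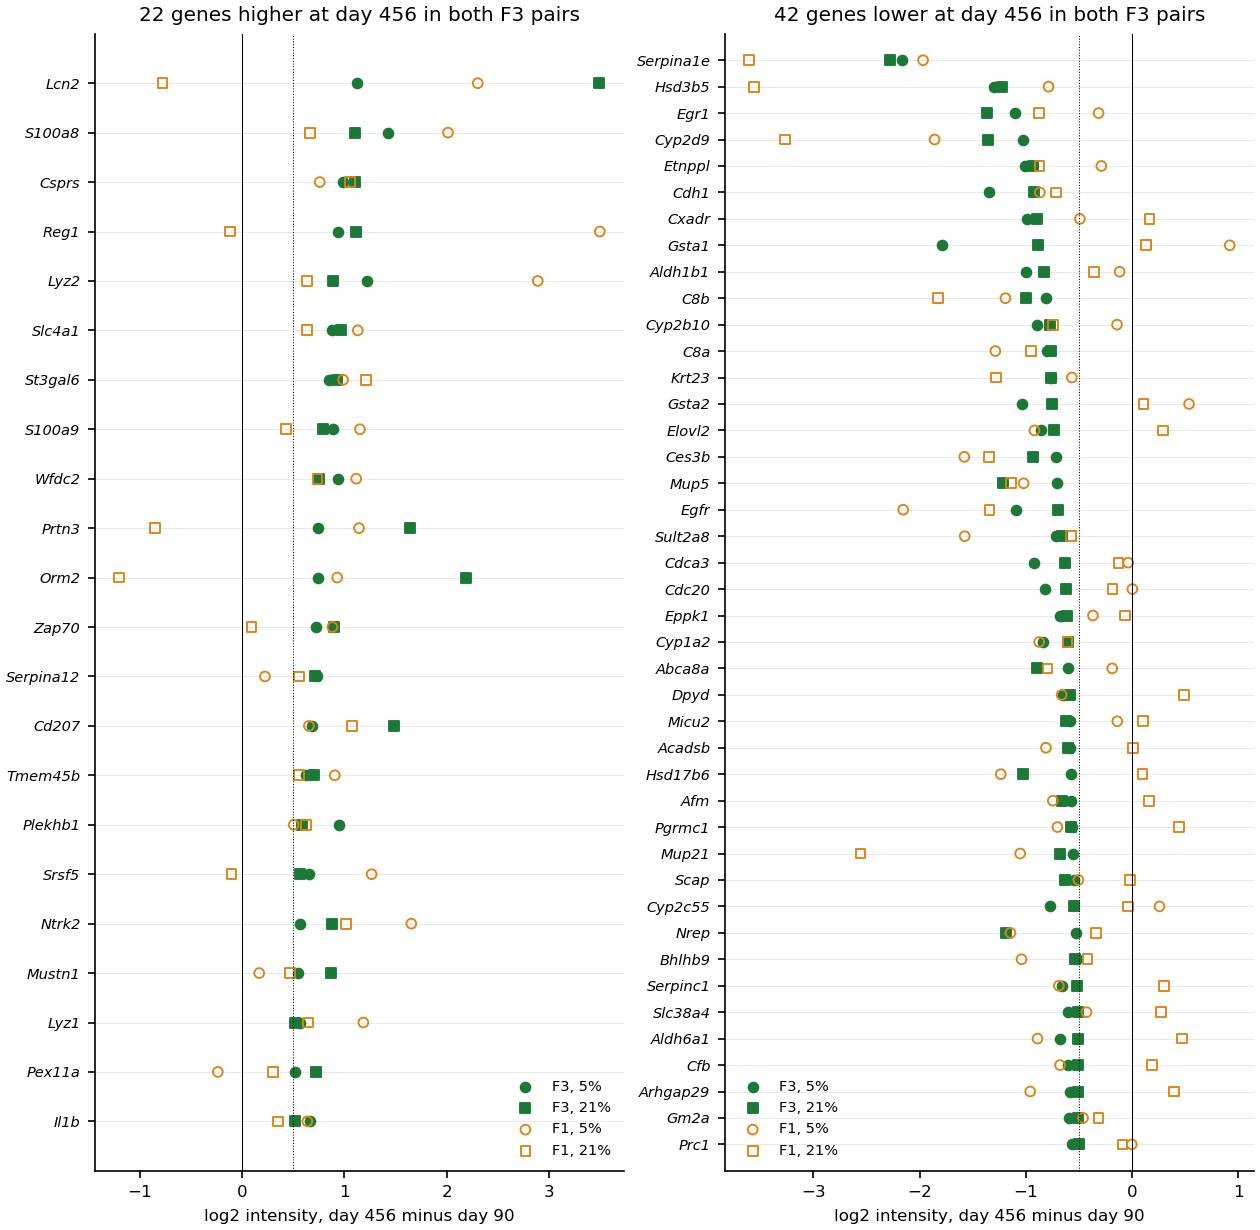
Log2 intensity difference between day 456 and day 90 for the 22 genes higher (left) and the 42 genes lower (right) in both F3 pairs, ordered by the smaller of the 2 F3 differences. Filled green symbols are the F3 pairs and open orange symbols the F1 pairs, circles 5% and squares 21% corn oil, and the dotted line marks 0.5. Most F1 symbols lie on the same side of 0 as the F3 ones, Gsta1 and Gsta2 lie on the other side in both F1 pairs, and the F1 21% symbols cross 0 for 5 of the higher and 15 of the lower genes.

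A smaller group of the lower genes was highest, among the 8 arrays, on the F3 arrays of day 90. It held the mitotic genes Cdc20 (the activator of the anaphase-promoting complex), Cdca3 (a protein of mitotic entry) and Prc1 (which bundles microtubules between the separating chromosomes). Their promoters are printed because these genes move together and because genes of late cell cycle phases commonly carry 2 short elements near the start of transcription, the CHR element TTTGAA and the CCAAT box, whose letters CCAAT bind the factor NF-Y. The sequences run 250 bases before to 50 bases after the start, from RefSeq on assembly GRCm38.p6, 5′ to 3′ on the strand of the gene, with matches to TTTGAA and CCAAT on either strand in capitals (ATTGG is CCAAT on the opposite strand). Cdc20 lies on the minus strand at chr4:118437294-118437593, Cdca3 on the plus strand at chr6:124829926-124830225, and Prc1 on the plus strand at chr7:80294201-80294500, where the first of 2 listed starts was used.
Cdc20: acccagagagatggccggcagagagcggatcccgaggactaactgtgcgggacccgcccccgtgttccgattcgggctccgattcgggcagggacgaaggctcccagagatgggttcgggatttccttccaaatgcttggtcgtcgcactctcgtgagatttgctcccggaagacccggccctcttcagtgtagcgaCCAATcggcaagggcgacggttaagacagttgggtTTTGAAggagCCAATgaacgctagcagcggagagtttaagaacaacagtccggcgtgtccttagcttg
Cdca3: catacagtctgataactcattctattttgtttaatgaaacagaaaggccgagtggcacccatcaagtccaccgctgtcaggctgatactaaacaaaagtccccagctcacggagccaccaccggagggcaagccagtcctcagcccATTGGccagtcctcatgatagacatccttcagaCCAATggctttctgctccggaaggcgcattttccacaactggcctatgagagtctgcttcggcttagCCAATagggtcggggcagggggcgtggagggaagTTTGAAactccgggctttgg
Prc1: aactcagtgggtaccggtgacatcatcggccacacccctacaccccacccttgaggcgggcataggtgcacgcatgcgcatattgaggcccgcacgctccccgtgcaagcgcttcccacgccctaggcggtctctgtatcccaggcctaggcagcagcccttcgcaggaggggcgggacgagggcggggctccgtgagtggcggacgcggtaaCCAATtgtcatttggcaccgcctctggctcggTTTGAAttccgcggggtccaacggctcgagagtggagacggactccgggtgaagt
TTTGAA begins 18 bases before the start in Cdc20, 5 before it in Prc1 and 30 after it in Cdca3, and each promoter holds at least 1 CCAAT upstream of it. The matches do not overlap. Both motifs together were found in 11 of 25 promoters of the measured cell cycle list (44%), in 7 of 54 promoters found for the 64 genes (13%) and in 7.12% of 27025 promoters of the same length. With or without the other, TTTGAA was in 18.1% and CCAAT in 37.9% of all promoters. A match is a description of the letters and does not show that a factor binds there.

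Cdc20 had intensities of 229 and 199 at day 90 and 129.9 and 129.8 at day 456 in F3, against 140.3 and 146 at day 90 and 140.4 and 128 at day 456 in F1. The F3 arrays of day 90 were thus above the 6 others, which lay close together. Cdca3 had 298 and 256 at day 90 and 157 and 165 at day 456 in F3 and 173 and 171 at day 90 and 169 and 157 at day 456 in F1, so both F3 arrays of day 90 were above the other 6. Prc1 had 214 and 197 at day 90 and 145 and 139 at day 456 in F3 and 151 and 151 at day 90 and 150.1 and 142 at day 456 in F1. The 2 other probes of Cdc20 were dimmer, with -0.33 and -0.23 for one and -0.35 and -0.27 for the other. Over the 27 cell cycle genes measured, 22 were lower and 1 was higher in both F3 pairs, with a median of -0.19, and 14 (51.9%) had their 2 highest values on the 2 F3 arrays of day 90, against 239 of all 8945 genes (2.67%). The median log2 level of the list was 7.41 and 7.39 on the F3 arrays of day 90 and 7.12 to 7.19 on the other 6. In F1 the list's median difference was -0.02. These levels are close to the filter bound of 6.947, where differences are understated in both generations. Some of the 14 barely differed, such as Top2a (-0.06 and -0.05). Members beside the 3 named included Cenpa, a histone of the centromere (-0.47 and -0.69), Birc5, which encodes survivin (-0.36 and -0.40), Mcm5 (-0.27 and -0.43) and Mcm6 (-0.34 and -0.43), subunits of the replicative helicase, and the spindle protein gene Nusap1 (-0.23 and -0.27). Tyms (+0.34 and -0.06) and Tk1 (+0.03 and -0.58), enzymes of thymidylate synthesis, did not follow this order.

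The glutathione S-transferase genes Gsta1 and Gsta2, whose products conjugate toxic electrophiles to glutathione, shared the high F3 level at day 90. Gsta1 had 545 and 577 at day 90 and 158 and 313 at day 456 in F3 and 141 and 151 at day 90 and 267 and 164 at day 456 in F1. Its differences were -1.79 and -0.88 in F3 and +0.92 and +0.13 in F1. Gsta2 had 372 and 363 at day 90 and 181 and 215 at day 456 in F3 and 155 and 173 at day 90 and 224 and 186 at day 456 in F1, with differences of -1.04 and -0.76 and of +0.54 and +0.11. These were the only 2 of the 64 genes that moved the opposite way in both F1 pairs, and since the coding sequences are near-identical the probes may read both. Cyp2c55, a cytochrome P450 of fatty acid hydroxylation, had 297 and 224 at day 90 and 174 and 153 at day 456 in F3 and 166 and 155 at day 90 and 198 and 151 at day 456 in F1. In all, 12 of the 42 lower genes had their 2 highest values on the F3 arrays of day 90, against 239 of all 8945 genes (2.67%). The choice of the genes favours that count too. The 12 were Cdc20, Cdca3, Prc1, Gsta1, Gsta2 and Cyp2c55 with Etnppl, Cdh1, Cxadr, Aldh1b1, Eppk1 and Micu2, a regulator of mitochondrial calcium uptake.

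**Figure D4:**
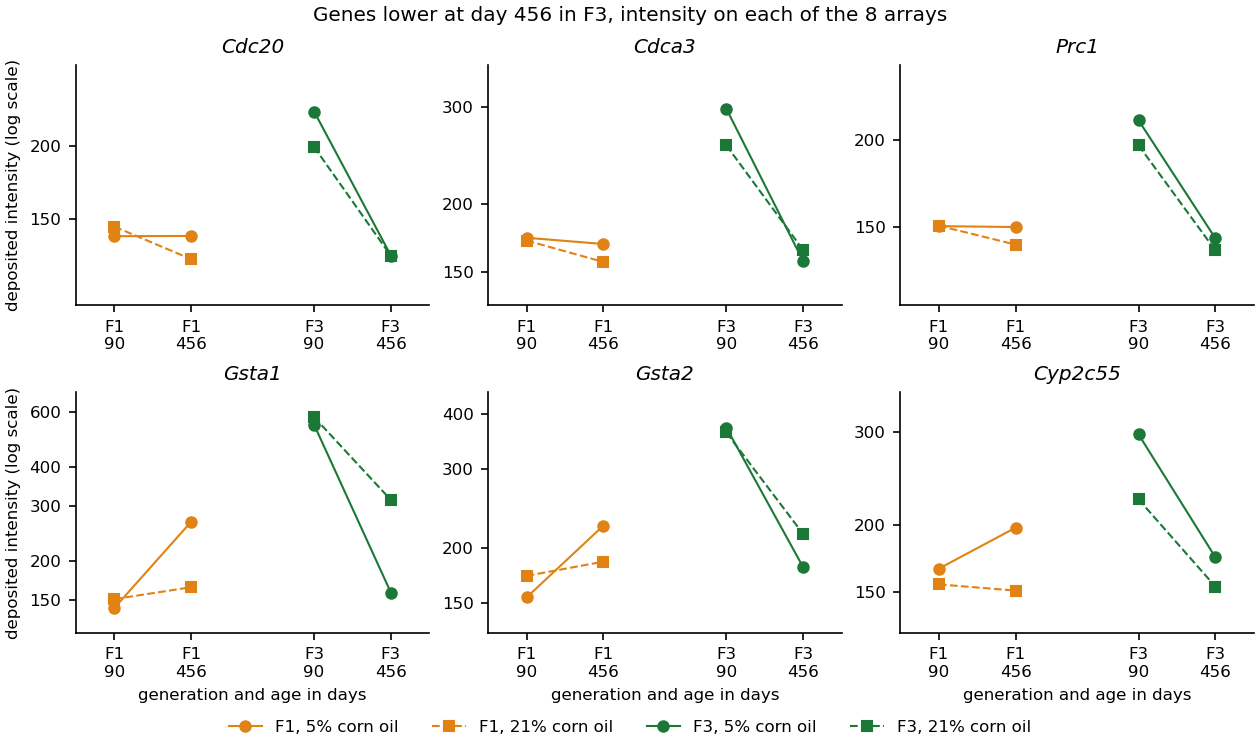
Deposited intensity on a log scale for 6 genes that were lower at day 456 in both F3 pairs, 1 point for each of the 8 arrays, with a line joining day 90 to day 456 within a generation and diet (circles and solid lines 5% corn oil, squares and dashed lines 21%). In each panel the 2 F3 arrays of day 90 are the highest of the 8, and the F1 values at both ages lie at or below 267, the level of Gsta1 on the F1 5% array of day 456.

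A second group of lower genes was lowest on the F3 arrays of day 456. It held 13 of the 42 genes, whose 2 lowest values were on those arrays, against 498 of all 8945 genes. The choice of the genes on these arrays favours that count. Cxadr, Aldh1b1, Eppk1 and Micu2 were in both groups. Elovl2, the elongase of very long polyunsaturated fatty acids, had 1488 and 1069 at day 90 and 819 and 641 at day 456 in F3 and 1796 and 954 at day 90 and 949 and 1164 at day 456 in F1. Scap, which escorts the sterol-regulated factors SREBP, had 542 and 481 at day 90 and 371 and 311 at day 456 in F3 and 669 and 433 at day 90 and 471 and 427 at day 456 in F1. Aldh6a1, of valine breakdown, had 3013 and 2588 at day 90 and 1886 and 1816 at day 456 in F3 and 4134 and 2547 at day 90 and 2229.6 and 3532 at day 456 in F1. For Elovl2 and Aldh6a1 the F1 5% pair moved as F3 did, but the F1 21% pair moved the other way (+0.29 and +0.47). By sign, the same held for Dpyd, Acadsb (an acyl-CoA dehydrogenase of branched chains), Hsd17b6 (a steroid dehydrogenase), Afm and Pgrmc1 (a haem-binding membrane protein). It also held for Serpinc1, Slc38a4 (an amino acid transporter), Cfb, Arhgap29, Cxadr and Micu2, which makes 13 of the 42 genes. Acadsb barely differed in the F1 21% pair (+0.005). Acadsb, Hsd17b6 and Arhgap29 are not among the 13 genes lowest on the F3 arrays of day 456.

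Set against F1, the genes chosen in F3 mostly moved the same way. Of the 22 higher genes, 21 (95.5%) had a mean F1 difference above 0, against 41.0% of all genes tested, and of the 42 lower genes 39 (92.9%) had one below 0, against 59.0%. Within pairs the count was 21 in the F1 5% pair and 17 (77.3%) in the F1 21% pair for the higher genes, where 37.6% and 50.4% of all genes were above 0. For the lower genes it was 38 (90.5%) and 27 (64.3%), where 62.4% and 49.6% of all genes were below 0. The minimum of 0.5 was passed in both F1 pairs by 11 of the higher genes and by 13 of the lower genes, while over all genes it was passed upward by 0.391% and downward by 0.447%. The median difference of the higher genes was +0.84 in F3, and +1.05 and +0.56 in the F1 5% and 21% pairs. That of the lower genes was -0.76 in F3, and -0.70 and -0.25 in the F1 pairs. All 4 arrays of day 456 lay above all 4 of day 90 for 15 of the 22 higher genes (3.22% of all genes did so), and below them for 21 of the 42 lower genes (4.89% of all genes). Since 2 of the 4 arrays on each side chose the genes, nothing is read from these counts. The sharing was uneven between the F1 pairs, as over all genes: the F3 5% pair correlated with the F1 5% pair at 0.61 and with the F1 21% pair at -0.02, and the F3 21% pair at 0.33 and 0.01. The 2 arrays of the F1 5% pair include the one that stands apart and one with pancreas transcripts, and the part of either in these values was not tested.

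Lipid synthesis genes had higher median age differences in F1 than in F3. The 18 cholesterol synthesis genes had a median F3 difference of -0.05, with 6 higher and 8 lower in both pairs, and a median F1 difference of +0.47, with 13 higher in both pairs and 1 lower. Fdps, which makes farnesyl diphosphate, differed by +0.36 and +0.23 in F3 and by +1.67 and +0.88 in F1, and Sqle, squalene epoxidase, by +0.12 and +0.22 and by +1.37 and +0.71. Insig1, which holds back SREBP, was lower in both F3 pairs (-0.58 and -0.43). On the 2 F1 arrays of day 90 the median log2 level of the list was 8.97 and 8.95, below the 6 other arrays at 9.25 to 9.71. They are the array with the lowest mean correlation, which also held muscle transcripts, and the array with the Y-linked signal. Every F1 difference of the lipid lists is taken from these arrays, and their part in it was not tested. The 22 fatty acid and triglyceride synthesis genes had a median of -0.15 in F3, with 12 lower and 2 higher in both pairs, and of +0.15 in F1, with 11 higher and 2 lower. Elovl6, which elongates saturated fatty acids, differed by -0.69 and -0.48 in F3 and by +0.41 and +0.63 in F1. Scd1, the main stearoyl-CoA desaturase of liver, differed by -0.22 and -0.67 in F3, and Acaca, acetyl-CoA carboxylase, by -0.52 and -0.28. No gene of either list passed the test of a difference between generations, in which 0% of genes were called.

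**Figure D5:**
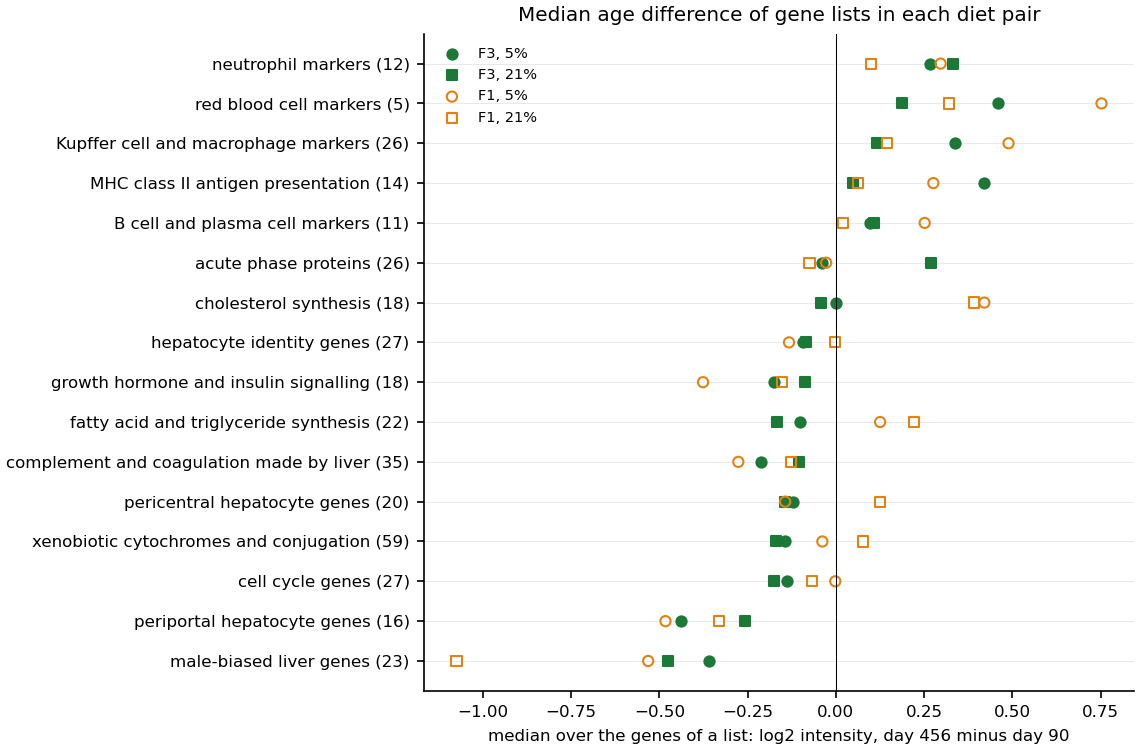
Median over the measured genes of each of 16 lists (number in parentheses) of the log2 intensity difference between day 456 and day 90, in each diet pair (filled green F3, open orange F1, circles 5%, squares 21% corn oil). Both F3 medians lie above 0 for the neutrophil, red cell, macrophage, MHC class II and B cell lists and below 0 for the male-biased, periportal and cell cycle lists, and the cholesterol synthesis list lies near 0 in F3 and near +0.4 in F1.

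Other lists differed less in F3. The 43 cytosolic ribosomal protein genes had a median of +0.14, with 29 higher and 5 lower in both pairs, while their F1 medians were +0.27 and -0.16. The genes of the mitochondrial respiratory chain had +0.03, those of bile acid synthesis and transport -0.09, and the clock genes -0.11, with +0.02 in the 5% pair and -0.18 in the 21% pair. Stellate cell and matrix genes had a median of -0.01, with Col3a1, a chain of fibrillar collagen, at -0.63 and -0.30. The p53 and senescence genes had -0.03 and the antioxidant genes of NRF2 -0.00345.

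Tests over all genes were made with limma on all 8 arrays, with terms for diet, generation, age and age by generation, and with Benjamini-Hochberg adjustment over 8945 genes. At an adjusted p of 0.05, 0 genes passed for age in F3 (0%, lowest adjusted p 0.148), 0 for age in F1 (0%, lowest 0.161) and 0 for age by generation (lowest 0.969). At an unadjusted p of 0.05 the counts were 447 for F3 (5%), 904 for F1 and 260 for age by generation (2.91%), and 5% is also the share that such p-values give where nothing differs. The median standard error (SE) of an F3 difference was 0.12 on the log2 scale, and 0.16 for the difference between generations. The smallest F3 p-values all had an adjusted p of 0.148 in limma. They were those of Cdc20 (-0.72 ± 0.07, SE, 2 arrays a side, 1 of each diet), Prc1 (-0.53 ± 0.06), D17H6S56E-5 (-0.43 ± 0.05), Cdca3 (-0.78 ± 0.09), Csprs (+1.04 ± 0.12) and Cdh1 (-1.13 ± 0.14). Egr1, Slc4a1, Pbk (a mitotic kinase) and C130026I21Rik came next, with an adjusted p of 0.205.

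The calls turned on which arrays gave the error. When the 4 F3 arrays were fitted alone, with diet and age and 1 residual degree of freedom, 202 genes were called by limma (2.26%), 64 higher and 138 lower, and all 64 genes of the set were among them, which the choice by size in both F3 pairs favours. When the F1 5% array of day 90 was left out of the fit of all arrays, 23 genes were called for F3 age, 5 higher and 18 lower, and when the F1 21% array of day 90 was left out the same 23 genes were called (adjusted p by limma 0.00607 to 0.0337 and 0.000596 to 0.0326). Of these, 17 belong to the set of 64, among them S100a8, S100a9, Csprs and Slc4a1 upward and Hsd3b5, Cdc20, Cyp2b10, Serpina1e, Egr1, Prc1, Cdca3, Cdh1 and Cyp2c55 downward. Leaving out any of the 4 F3 arrays or another F1 array left 0 calls for F3 age. Without the F1 5% array of day 90, 12 genes were called for age by generation, all with an F3 difference above the F1 difference, including Cyp4a12a (+2.21, adjusted p by limma 8.63e-05), Elovl3, Cyp7b1, Susd4, Hsd3b5, Mup21 and Cyp2d9 of the male-biased list. The F1 difference then leaned on the 21% array with the Y-linked signal as the only F1 array of day 90. Without the F1 21% array of day 456, Gkn3 and Prap1 were called for age by generation.

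The smallest p-values for age by generation included the genes that were high on the F3 arrays of day 90. Nusap1 had an F3 minus F1 difference of -0.37 ± 0.05 (SE), Gsta2 of -1.22 ± 0.19, Prc1 of -0.48 ± 0.08 and Cdc20 of -0.63 ± 0.10, each with an adjusted p of 0.969 in limma. D17H6S56E-5, Diaph3 (a formin that nucleates actin) and Il7 (the cytokine interleukin 7, with +0.36 and +0.41 in F1 and -0.0035 and +0.06 in F3) followed, then Cyp2c55, Cdca3 and Elovl6. At an unadjusted p of 0.05 in limma, 13 of the 42 lower and 0 of the 22 higher genes passed for age by generation. Over all 8945 genes 260 did so (2.91%), and no gene passed after adjustment. The F3 values in that difference also chose the genes, so these counts describe them and test nothing.

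Near the minimum, Prc1 (-0.563 and -0.501), Gm2a, a lysosomal lipid-binding protein (-0.598 and -0.505), and Arhgap29 (-0.583 and -0.506) were the last genes inside. Lpl, lipoprotein lipase (-0.858 and -0.497), Slc35e2 (-0.526 and -0.497) and Cyp4f14 (-0.494 and -0.607) were the first outside. The 7 genes beyond the minimum in opposite directions were Apoa4, an apolipoprotein (-0.98 and +0.53), Clpx, a mitochondrial chaperone (-0.57 and +0.55), Ly6d (-0.98 and +0.98), Saa1, Saa2, the tubulin gene Tubb4b (-0.54 and +0.56) and Xlr4a (+0.53 and -1.02). The members not yet named were Abca8a, a lipid transporter (-0.61 and -0.90), Nrep (-0.53 and -1.19) and Bhlhb9 (-0.52 and -0.54), all lower at day 456.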

How the data were processed

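Liver total RNA of 8 samples from female mice was measured on Illumina bead arrays; per the labels' protocols it was extracted with Trizol, checked on an Agilent Bioanalyser and labelled with biotin. The values the authors deposited are intensity on a linear scale, 1 per probe and array. The normalization step is not given in the sources, and equal means (456.9 on each array) and medians (123.2 to 123.5) show that arrays had been scaled to one another. The lowest value was 101.4, so the values have a floor, whose source is not given. Scanner files and detection p-values were not used here, and the number of arrays limits the precision.

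The values were log2 transformed. Of 25697 probes 23978 carried 1 gene symbol and 1719 none. Probes with a mean log2 above 6.947, the median of probe means, were kept (12096 with a symbol), and each gene took its probe with the highest mean, which gave 8945 genes, 2285 of them with more kept probes. Tests used limma 3.58.1 in R 4.3.3 with a variance trend (3 residual and 3.626 prior degrees of freedom), two-sided. The fit was tested on simulated data. Figures used matplotlib 3.10.9.

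The members, the 38 gene lists (778 of 1084 symbols measured) and the minimum were chosen with earlier results of these data known. Genes were named as the 15 with the largest smaller pair difference in each direction, the 10 with the smallest p, up to 4 per list described, those farthest with or against F3 in F1, and 3 on either side of the minimum. The other members, and other list members used as examples, were named after their values were seen. Alternatives were other scalings, a background subtraction, filters, probe choices, minimum differences, models and leaving out arrays. Single diet pairs as alternatives were added after seeing the data.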

Additional observations from a re-analysis of the deposited data

Results flagged for a closer look

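Among the 52 named genes for which the alternatives were run, both F3 pairs moved one way and both F1 pairs the other for 6 (11.5%), and over all 8945 genes tested for 830 (9.28%). Gsta1 had an F3 difference minus F1 difference of -1.86 on the log2 scale, with -1.79 and -0.88 in F3 (5% then 21% pair) and +0.92 and +0.13 in F1. Gsta2 had -1.22. The mitotic spindle gene Nusap1 had -0.37, with -0.23 and -0.27 in F3 and +0.12 and +0.11 in F1, and Diaph3 had -0.25, with -0.18 and -0.18 and +0.08 and +0.07. Among lipid genes, Elovl6 had -1.11, with -0.69 and -0.48 in F3 and +0.41 and +0.63 in F1, and Lpl, lipoprotein lipase, had -0.86, with -0.86 and -0.50 and +0.18 and +0.18. None passed the age by generation test in limma, where adjusted p was 0.969 for Gsta2, Nusap1 and Diaph3 and 0.996 for Gsta1, Elovl6 and Lpl. Groups held 2 arrays each, so no single array could be tested against its group.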

How the results depend on the processing

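The alternatives were run for 52 of the named genes, not for list members given as examples or for genes that moved apart in the 2 diets. The direction of the F3 difference of these 52 held under the scalings, the background subtraction, the filters, the probe choices and in each F3 pair alone, except Il7, near 0 in both, with -0.0035 in the 5% pair and 0.0557 in the 21% pair alone. Counts moved with the minimum and with background. With background subtracted 123 genes were higher and 218 lower in both F3 pairs, and 78.9% of the lower ones were below 0 in F1. A minimum of 0.3 gave 89 and 191, with 79.1% of the lower below 0 in F1, and a minimum of 1 gave 2 and 4, with 100% in both directions. With a mean log2 of at least 8, 100% of the lower genes were below 0 in F1. The F1 21% pair alone gave 77.3% of the higher and 64.3% of the lower genes moving as in F3. The F3 21% pair alone held 83 genes higher and 103 lower, and the 5% pair alone 159 and 147. Scalings, the stricter filter and the mean of probes kept 51 to 63 of the 64 genes.

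Calls for F3 age were 202 on the 4 F3 arrays alone and 9 in an additive model of age, and F1 calls were 2 with no diet term. Leaving out 1 array gave 0 to 23 calls for F3 age, 0 to 1301 for F1 age (30 without the F1 5% array of day 90, 1301 without the F1 21% array of day 90, 4 without the F1 21% array of day 456) and 0 to 12 for age by generation. Counts over both F3 pairs cannot be made without one F3 array. Of the 16 lists plotted, those whose median changed sign under an alternative were cell cycle in F1 (0.0113 with arrays centred, 0.0590 at a mean log2 of 8), pericentral in F1 (0.0183 centred, 0.0106 with the mean of probes), xenobiotic in F1 (-0.000554 with no filter), B cell and plasma cell (-7.31e-05 in F3 and -0.0778 in F1 at a mean log2 of 8), cholesterol synthesis in F3 (0.0169 at a mean log2 of 8, 0.00722 with the mean of probes, 0.000997 in the 5% pair alone) and acute phase in F3 (-0.0401 in the 5% pair alone). The causes were not tested. Diet was 1 term of the fit shared by both generations, so arrays were not paired by diet within each generation. Without the diet term 0 genes were called for F3 age. The labels give no replicate numbers to pair by. With 2 arrays a side, signal near background limits the dim genes.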
